A study of Mus musculus with 32 samples.

Results

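Cxcl1, Cxcl2 and Cxcl5 encode secreted chemokines of the mouse CXC family that draw neutrophils out of the blood. They were taken by gene symbol from the deposited expression table, which lists each of them once, and so are 3 of its 21899 genes. The rule used symbols and not measured values. They lie close together on chromosome 5, all on the plus strand (coordinates of GENCODE M21 on GRCm38, the assembly also called mm10). Cxcl5 (ENSMUSG00000029371) spans chr5:90759360-90761624, Cxcl1 (ENSMUSG00000029380) spans chr5:90891241-90893115 and Cxcl2 (ENSMUSG00000058427) spans chr5:90903871-90905938.

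These proteins carry a short Glu-Leu-Arg motif near their amino terminus and signal through the receptor CXCR2, which mouse neutrophils display. Their genes are kept nearly silent in resting cells and are switched on when Toll-like receptor 4, the interleukin-1 receptor or the TNF receptor activates the transcription factor NF-kappaB, and their messenger RNAs are short-lived because AU-rich elements in the 3′ untranslated region recruit decay proteins. In brain inflammation, astrocytes are among the cells that make CXCL1 and related ligands, and in mouse models these recruit neutrophils across the blood-brain barrier.

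RNA was sequenced from primary mouse astrocytes, the support glia of the brain grown in culture. The 8 groups, with 4 libraries each and 32 in all, were untreated cells (Control), cells given photobiomodulation (PBM, exposure to low-level light), cells given lipopolysaccharide (LPS, a bacterial outer-membrane component sensed by Toll-like receptor 4), and cells given both (LPS+PBM), each at 4 h and at 24 h. The title of the study states that PBM dampens LPS-driven astrocyte inflammation through STAT5A and SOCS3, so the comparison of LPS+PBM with LPS is its central one; the sources used here do not give the strain, light wavelength, LPS dose or order of treatments. Whether the 4 libraries of a group are separate cultures is not said in the labels, and p-values therefore reflect only how far these libraries spread, which may be technical.

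Levels are in FPKM, fragments scaled to transcript length and to the size of the library. From the steps between low FPKM values, each library rested on about 130768 to 143855 fragments (median 137283), and 10136 to 10777 genes were above 0. At this depth 1 fragment was worth 7.29 to 8.02 FPKM for Cxcl1, 6.27 to 6.90 for Cxcl2 and 4.41 to 4.86 for Cxcl5, so a value of 0 does not show that a gene was silent. The limit that a count of 0 allows (3 fragments) was 13.2 to 14.6 FPKM for Cxcl5. Of 10 astrocyte markers, 7 (among them Gfap, Aqp4 and Sox9) were above 0 in all 32 libraries. Markers of other cell types were present too: 7 of 14 microglia and macrophage markers and 5 of 7 fibroblast markers were above 0 in all libraries. Of 10 neutrophil markers, 7, including Ly6g, Mpo, Elane and S100a9, were at 0 in every library.

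In cells without LPS the 3 chemokine genes were at or close to 0. Cxcl5 was listed at 0 in all 16 Control and PBM libraries. Cxcl1 was at 7.83, 15.3, 15.2 and 0 FPKM in the Control libraries at 4 h, at 7.72, 0, 0 and 7.30 in the PBM libraries at 4 h, at 0, 0, 0 and 8.02 in Control at 24 h and at 0, 0, 0 and 14.6 in PBM at 24 h. Cxcl2 was at 0, 6.56, 13.1 and 0 FPKM in Control at 4 h, 0, 0, 6.70 and 0 in PBM at 4 h, 0, 6.30, 6.76 and 0 in Control at 24 h and 0, 0, 6.61 and 0 in PBM at 24 h. Each of these values corresponds to 0, 1 or 2 fragments, and the Control and PBM ranges overlapped for all 3 genes at both times. By limma on log2(FPKM + 1), none of the 3 passed an adjusted p of 0.05 for PBM against Control, where 0.0453% of 13247 genes passed at 4 h and 0.113% of 13278 at 24 h. The fitted difference for Cxcl1 was −1.25 ± 0.77 (SE) at 4 h, with a 95% interval of −2.87 to 0.37, and for Cxcl2 it was −0.95 ± 0.77 (−2.57 to 0.68), and at 24 h the differences were 0.20 ± 0.76 (−1.40 to 1.80) and −0.72 ± 0.71 (−2.21 to 0.76). A change in the resting level was not detectable at this depth.

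LPS raised all 3 genes at both times. Cxcl1, the most abundant of them, stood at 459, 372, 442 and 326 FPKM in the LPS libraries at 4 h and at 611, 462, 508 and 582 FPKM at 24 h. Its mean of 400 ± 61.7 FPKM (SD, n = 4) at 4 h placed it 119th among all genes in level, and its mean of 541 ± 67.9 at 24 h placed it 80th. Every LPS library lay far above every Control library. The difference from Control was 5.84 ± 0.77 (SE) on the log2(FPKM + 1) scale at 4 h (limma, adjusted p = 9.24e-05) and 8.28 ± 0.76 at 24 h (limma, adjusted p = 1.21e-06). Since the Control libraries held 5 Cxcl1 fragments at 4 h and 1 at 24 h, the size of the rise is loosely known: the ratio of summed fragments per depth was 42.1 at 4 h (95% counting interval, exact binomial, 17.8 to 131) and 278 at 24 h (49.5 to 11020).

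Cxcl2, also called MIP-2 and a close paralogue of Cxcl1, stood at 113, 75.2, 152 and 69.3 FPKM in the LPS libraries at 4 h and at 149, 91.4, 84.8 and 138 FPKM at 24 h. All were above the Control libraries, and the LPS libraries of both times overlapped. The log2(FPKM + 1) difference from Control was 4.94 ± 0.77 at 4 h (limma, adjusted p = 0.00063) and 5.37 ± 0.71 at 24 h (limma, adjusted p = 0.000116). The ratio of summed fragments per depth was 20.7 (6.77 to 103) at 4 h and 34.5 (9.21 to 291) at 24 h, against 3 and 2 fragments in the Control libraries.

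Cxcl5, also known as LIX, stood at 22.8, 30.9, 62.0 and 23.5 FPKM in the LPS libraries at 4 h and at 129, 124, 93.2 and 97.2 FPKM at 24 h. The Control libraries were listed at 0, so no fold is given; limma called the rise at 4 h (adjusted p = 0.000549) and at 24 h (adjusted p = 1.48e-09). The 4 h libraries summed to 30 fragments (95% Poisson interval 20.2 to 42.8) and the 24 h libraries to 97. Thus 3 of 3 genes passed as higher at each time, where 1.75% of 13247 genes passed as higher at 4 h and 1.62% of 13278 at 24 h. Likewise 3 of 3 had no overlap between LPS and Control, against 3.65% of genes with all LPS libraries higher at 4 h and 3.59% at 24 h.

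These are bulk libraries, in which fewer cells of a type and less RNA per cell cannot be told apart. At 4 h the summed level of the 14 microglia and macrophage markers was 608 to 730 FPKM in Control and 408 to 581 FPKM with LPS, and at 24 h 720.3 to 766 FPKM and 540 to 661 FPKM, lower with LPS at both times. The summed 10 astrocyte markers were at 210.4 to 371 FPKM and 168 to 247 FPKM at 4 h, which overlapped, and at 313 to 435 FPKM and 163 to 218 FPKM at 24 h, which did not. The summed 7 fibroblast markers were at 3206 to 3517 FPKM in Control and 2404 to 3012 FPKM with LPS at 4 h, and overlapped at 24 h (3688 to 4025 and 3317 to 3855 FPKM). Endothelial and mural markers overlapped at 4 h (1063 to 1444 and 1037 to 1491 FPKM) and not at 24 h (965 to 1079 and 664 to 681 FPKM). Oligodendrocyte lineage markers, at 49.9 to 64.4 against 24.6 to 37.7 FPKM, and neuronal markers, at 60.7 to 80.6 against 36.4 to 55.6 FPKM, were also lower with LPS at 4 h without overlap, and both overlapped at 24 h. These sums do not show that such cells were present. Mog and Mag, and the neuronal Rbfox3 and Snap25, were at 0 in all 32 libraries. Cspg4 led the oligodendrocyte list (mean 27.5 FPKM), and Stmn2, Map2 and Tubb3 made up nearly all of the neuronal sum. Neutrophil markers summed to at most 14.8 FPKM in any library, and 7 of the 10 were at 0 in all 32. Their part in the chemokine rises was not tested.

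**Figure D1:**
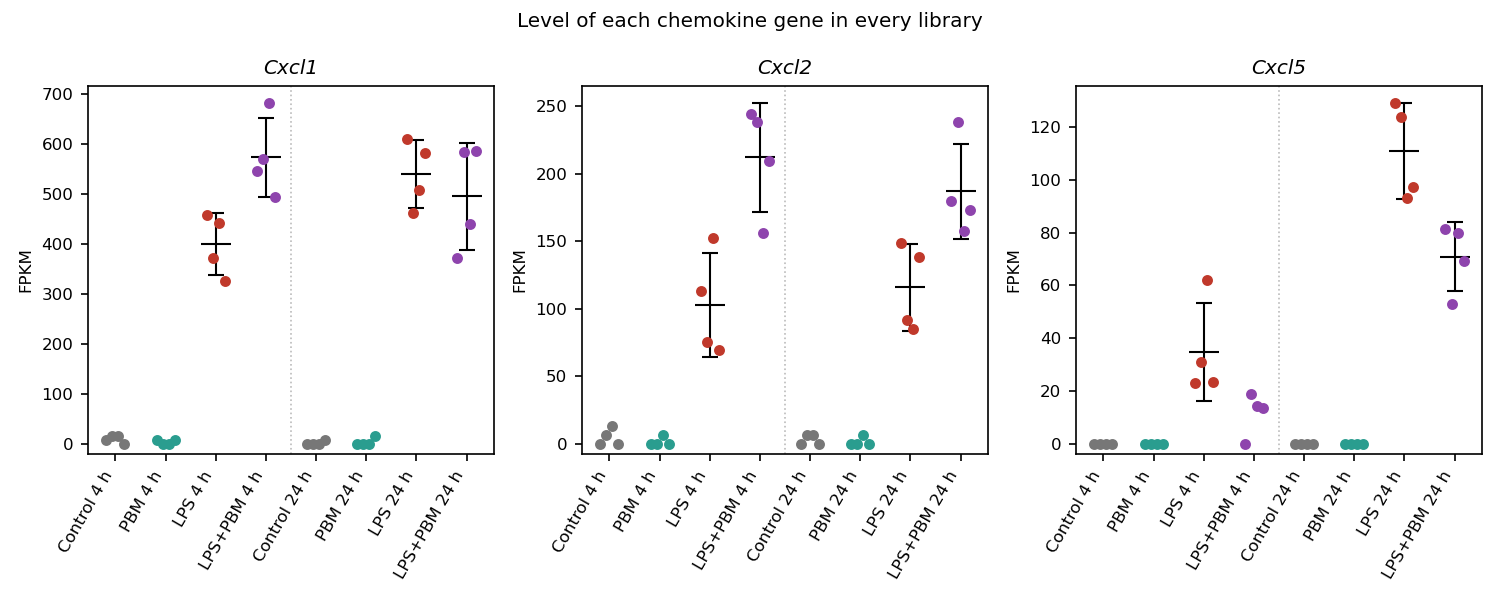
FPKM of Cxcl1, Cxcl2 and Cxcl5 in each of the 32 libraries, grouped by treatment and time; points are libraries, and bars give the mean and SD (n = 4) for groups with no library at 0. Control and PBM libraries lie at or near 0 in all 3 panels. Cxcl5 with LPS alone lies between 22.8 and 62.0 FPKM at 4 h and between 93.2 and 129 FPKM at 24 h. With LPS+PBM it lies between 0 and 18.9 FPKM at 4 h and between 53.0 and 81.2 FPKM at 24 h.

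With light in both arms, all 3 genes were again called higher with LPS. Against PBM alone, LPS+PBM raised Cxcl1 by 7.61 ± 0.77 at 4 h (limma, adjusted p = 4.02e-06) and 7.94 ± 0.76 at 24 h (adjusted p = 1.92e-06) on the log2(FPKM + 1) scale. Cxcl2 rose by 6.98 ± 0.77 at 4 h (limma, adjusted p = 1.14e-05) and 6.80 ± 0.71 at 24 h (adjusted p = 5.07e-06). At 4 h these were the 1st and 2nd largest fitted rises among 13247 genes, and for LPS against Control at 4 h the ranks were 8 and 22. The PBM libraries at 4 h held 2 Cxcl1 fragments and 1 Cxcl2 fragment, so size and rank are loosely known. The ratio of summed fragments per depth at 4 h was 152 (95% counting interval 41.6 to 1258) for Cxcl1 and 130 (23.0 to 5185) for Cxcl2. Cxcl5 was called at 24 h (limma, adjusted p = 6.05e-09), again against libraries listed at 0. At 4 h its call was borderline (limma, adjusted p = 0.0434), its libraries overlapped those of PBM because 1 of them was at 0, and the call was lost when any 1 of 7 of the 8 libraries was left out (adjusted p from 0.000448 to 0.138 over the 8). The share of all genes called higher was 1.8% at 4 h and 1.81% at 24 h. Marker sums that did not overlap here were those of astrocytes, at 171 to 263 FPKM with PBM and 276 to 352 with LPS+PBM at 4 h and 213 to 315 and 129 to 190.0 at 24 h. Those of fibroblasts were at 2881 to 3280 and 2506 to 2843 FPKM at 4 h and 3969 to 4418 and 3132 to 3608 at 24 h, and those of endothelial and mural cells at 939 to 1158 and 581 to 832 FPKM at 24 h. Their part in these rises was not tested.

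The promoters of Cxcl1 and Cxcl2 are shown because both genes rose together with LPS and share a run of letters there. The RefSeq promoter table (GRCm38.p6) matched 2 of the 3 genes, Cxcl1 and Cxcl2, and also Cxcl3, the neighbouring paralogue. The longest run that all 3 of these windows of 250 bases before the start hold in common is the 11 letters GGGAATTTCCC, which contain a consensus site of NF-kappaB. Each line gives the stretch from 150 to 31 bases before the RefSeq start, 5′ to 3′ on the plus strand. The shared run is in capitals. The stretches are chr5:90891095-90891214 for Cxcl1, chr5:90903749-90903868 for Cxcl2 and chr5:90785951-90786070 for Cxcl3.
Cxcl1: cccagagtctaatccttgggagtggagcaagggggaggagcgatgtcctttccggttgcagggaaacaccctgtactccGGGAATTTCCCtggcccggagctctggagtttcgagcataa
Cxcl2: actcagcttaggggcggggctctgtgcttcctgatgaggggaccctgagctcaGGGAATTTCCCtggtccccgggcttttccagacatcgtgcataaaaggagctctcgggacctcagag
Cxcl3: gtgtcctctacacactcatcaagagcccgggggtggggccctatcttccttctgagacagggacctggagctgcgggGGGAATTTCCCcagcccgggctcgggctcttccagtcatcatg

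The capitals end 61 bases before the RefSeq start in Cxcl1, 87 bases before it in Cxcl2 and 63 bases before it in Cxcl3. RefSeq starts differ from the GENCODE starts given above, most in Cxcl2. There the stretch shown ends at 90903868, and the GENCODE gene begins at 90903871. Distances from the GENCODE starts would differ. GGGAATTTCCC, searched on both strands, was present in 14 of 32851 promoter windows of 250 bases (0.0426%). Of the genes with it, 7 were tested for LPS against Control at 4 h, of which 2 were called higher (Cxcl1 and Cxcl2), and 5 were tested at 24 h, of which 3 were called higher (the same genes and Cxcl3). The run was chosen from these promoters, so the count is no independent support. A match is a run of letters and was not tested as a binding site.

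The 3′ untranslated regions were read for ATTTA, the core pentamer of AU-rich elements. In the transcripts used (GENCODE M21), Cxcl1 held 7 in 595 bases, Cxcl2 held 11 in 737 bases and Cxcl5 held 5 in 1114 bases. Per kilobase this was 11.8, 14.9 and 4.49, against a median of 1.43 over 15924 transcripts, and 99.7%, 99.9% and 90.9% of those transcripts had a lower density. The 30 bases with the most ATTTA in each gene are shown, with ATTTA in capitals, because they show how densely the pentamers are stacked in Cxcl1 and Cxcl2 and not in Cxcl5.
Cxcl1: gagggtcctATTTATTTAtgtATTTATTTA
Cxcl2: tATTTATTTAtctatgtATTTATTTATTTA
Cxcl5: agcttcctgctcatctcacaagtgtATTTA

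At 4 h the libraries with LPS+PBM lay above those with LPS for Cxcl1 and Cxcl2 and below them for Cxcl5. Cxcl1 stood at 547, 570.5, 683 and 493 FPKM in the LPS+PBM libraries, all above the LPS libraries (326 to 459), with a mean of 573 ± 79.6 (SD, n = 4) against 400 ± 61.7. Cxcl2 stood at 244, 238, 156 and 209 FPKM, also all above the LPS libraries (69.3 to 152), with a mean of 212 ± 40.2 against 102 ± 38.5. Cxcl5 stood at 0, 18.9, 14.1 and 13.4 FPKM, all below the LPS libraries (22.8 to 62.0), on 10 fragments against 30. So 3 of 3 genes had no overlap between LPS+PBM and LPS, where 1.7% of 13247 genes lay fully higher and 2.14% fully lower.

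None of the 3 differences passed limma's adjusted p over all genes. The log2(FPKM + 1) difference was 0.52 ± 0.77 (SE) for Cxcl1 (limma, adjusted p = 0.910; 95% interval −1.10 to 2.14), 1.09 ± 0.77 for Cxcl2 (adjusted p = 0.776; −0.53 to 2.72) and −2.02 ± 0.78 for Cxcl5 (adjusted p = 0.544; −3.65 to −0.39). No gene at all passed in this comparison (0 of 13247, with 997 genes, 7.53%, under an unadjusted p of 0.05), and limma-voom on approximate fragments called 12. The exact two-sided permutation test over 4 against 4 libraries gave p = 0.0286 for each gene, the smallest this design allows. When the 8 libraries compared were fitted alone, without the Control and PBM libraries near 0, the unadjusted limma p was 0.00267 for Cxcl1, 0.000854 for Cxcl2 and 0.0258 for Cxcl5, with adjusted p of 0.488, 0.353 and 0.662. The ratio of summed fragments per depth was 1.43 (95% counting interval 1.20 to 1.72) for Cxcl1, 2.08 (1.53 to 2.87) for Cxcl2 and 0.336 (0.147 to 0.707) for Cxcl5. Leaving out the LPS+PBM library at 0 brought the Cxcl5 difference to −1.02.

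The summed level of the 10 astrocyte markers was 276 to 352 FPKM in the LPS+PBM libraries at 4 h and 168 to 247 FPKM in the LPS libraries, without overlap. That of the 14 microglia and macrophage markers was 476 to 648 against 408 to 581 FPKM, and that of the 7 fibroblast markers 2506 to 2843 against 2404 to 3012 FPKM, both overlapping. Their part in the chemokine differences between LPS+PBM and LPS was not tested.

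At 24 h the Cxcl1 levels of LPS+PBM and LPS overlapped, while Cxcl2 stayed apart upward and Cxcl5 downward. Cxcl1 stood at 371, 584, 439.6 and 587 FPKM in LPS+PBM, of which 371 and 439.6 lay below all LPS libraries (462 to 611). Its log2 difference was −0.14 ± 0.76 (limma, adjusted p = 1, with a 95% interval of −1.75 to 1.46). Cxcl2 stood at 179.9, 238, 157 and 173 FPKM (mean 187 ± 35.2, SD, n = 4), above the LPS libraries (84.8 to 149; mean 116 ± 32.3). Cxcl5 stood at 81.2, 53.0, 79.8 and 69.1 FPKM (mean 70.8 ± 13.0), below the LPS libraries (93.2 to 129; mean 111 ± 18.2).

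The Cxcl2 difference at 24 h was 0.71 ± 0.71 on the log2(FPKM + 1) scale (limma, adjusted p = 0.978; exact permutation p = 0.0286) and the Cxcl5 difference −0.64 ± 0.39 (limma, adjusted p = 0.964; exact permutation p = 0.0286). The fragment ratio was 1.63 (1.20 to 2.21) for Cxcl2, 0.636 (0.455 to 0.883) for Cxcl5 and 0.918 (0.774 to 1.09) for Cxcl1. Of all genes, 1.11% lay fully higher in LPS+PBM than in LPS at 24 h and 1.13% fully lower, and 0.00753% were called by limma (1 of 13278), none of the 3 chemokines among them. At 24 h the summed astrocyte markers (129 to 190 against 163 to 218 FPKM) and microglia markers (425 to 755 against 540 to 661 FPKM) overlapped between LPS+PBM and LPS.

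Whether the LPS response itself differed with light was tested as an interaction, which also takes in the PBM and Control libraries. For Cxcl1, Cxcl2 and Cxcl5 the interaction was 1.77 ± 1.09, 2.04 ± 1.09 and −2.02 ± 1.10 at 4 h (limma, adjusted p = 0.817, 0.784 and 0.785) and −0.34 ± 1.08, 1.44 ± 1.00 and −0.64 ± 0.55 at 24 h (adjusted p = 0.988, 0.912 and 0.912). None of the 3 passed at either time, where 0.0302% of genes passed at 4 h and 0.0527% at 24 h. At 4 h the interaction takes in PBM against Control, −1.25 for Cxcl1 (2 against 5 fragments) and −0.95 for Cxcl2 (1 against 3). For Cxcl5, at 0 in all Control and PBM libraries, the interaction equals the difference between LPS+PBM and LPS.

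**Figure D2:**
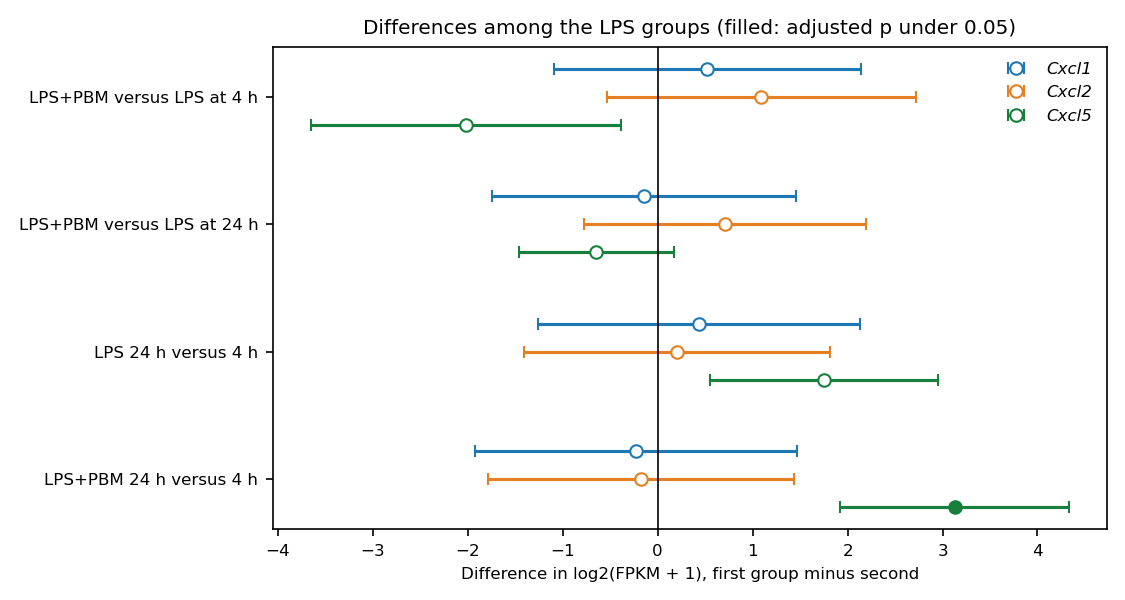
Fitted differences in log2(FPKM + 1) with 95% intervals among the 4 LPS groups, first group minus second, for Cxcl1, Cxcl2 and Cxcl5; filled points passed an adjusted p of 0.05. Only Cxcl5 in LPS+PBM at 24 h against 4 h is filled (3.13 ± 0.59), and at 4 h Cxcl2 lies to the right of 0 (1.09) and Cxcl5 to the left (−2.02).

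Cxcl5 stood higher at 24 h than at 4 h in both LPS groups. With LPS+PBM it rose from 0 to 18.9 FPKM at 4 h to 53.0 to 81.2 FPKM at 24 h, a log2 difference of 3.13 ± 0.59 (limma, adjusted p = 0.00131) and a fragment ratio of 6.08 (3.09 to 13.3). Without the 4 h library at 0 the log2 difference was 2.12, and it passed whichever single library was left out (limma, adjusted p from 0.000609 to 0.0064). With LPS it stood at 22.8 to 62.0 FPKM at 4 h and 93.2 to 129 FPKM at 24 h, without overlap; the log2 difference was 1.75 ± 0.59 (limma, adjusted p = 0.170; exact permutation p = 0.0286) and the fragment ratio 3.22 (2.12 to 5.02). That call changed with the libraries fitted: with the 8 LPS libraries alone it passed (limma, adjusted p = 0.019), while the LPS+PBM call then missed (adjusted p = 0.0512). Of 13937 genes, 0.531% were called higher at 24 h in LPS and 1.33% in LPS+PBM, and 2.98% and 3.8% lay fully higher.

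For Cxcl1 and Cxcl2 no difference between the times passed. Cxcl1 with LPS was higher in every library at 24 h than at 4 h (462 to 611 against 326 to 459 FPKM), by 0.44 ± 0.83 (limma, adjusted p = 0.924; exact permutation p = 0.0286), and Cxcl2 with LPS overlapped between the times (0.20 ± 0.79, limma, adjusted p = 1). With LPS+PBM the differences were −0.23 ± 0.83 for Cxcl1 and −0.18 ± 0.79 for Cxcl2, both overlapping and not called (limma, adjusted p = 0.998 and 1). The difference between the LPS effects at 24 h and 4 h was 2.44 ± 1.18 for Cxcl1, 0.43 ± 1.12 for Cxcl2 and 1.75 ± 0.83 for Cxcl5, and none passed (limma, adjusted p = 0.597, 0.976 and 0.590), where 0.617% of genes passed.

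Other cell type markers moved with time as well. From 4 h to 24 h the summed fibroblast markers went from 2404 to 3012 FPKM up to 3317 to 3855 with LPS and from 2506 to 2843 up to 3132 to 3608 with LPS+PBM. The summed endothelial and mural markers, mostly Acta2, went from 1037 to 1491 FPKM down to 664 to 681 and from 943 to 1386 down to 581 to 832. The summed astrocyte markers were lower at 24 h without overlap with LPS+PBM, going from 276 to 352 FPKM at 4 h to 129 to 190.0 FPKM at 24 h, and overlapped with LPS (168 to 247 and 163 to 218 FPKM). The part of these in the Cxcl5 rise was not tested.

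Ordering the groups by mean level gave a different order for each gene. For Cxcl1 the order was LPS+PBM at 4 h, LPS at 24 h, LPS+PBM at 24 h and LPS at 4 h, and each neighbour overlapped the next. For Cxcl2 both LPS+PBM groups came first, 4 h before 24 h and overlapping, followed without overlap by LPS at 24 h and LPS at 4 h, which overlapped each other. For Cxcl5 LPS at 24 h came first, clear of LPS+PBM at 24 h, which overlapped LPS at 4 h, and LPS+PBM at 4 h came last among the LPS groups, clear of the group before it. In all 3 genes the Control and PBM groups stood below, and their ranges overlapped one another.

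Ratios between the genes within a library do not change when the library is rescaled as a whole, apart from the added 1 FPKM. They were compared between groups in 12 exact two-sided permutation tests on log2 ratios of FPKM + 1 (adjusted over the 12; smallest possible p = 0.0286). The Cxcl2 to Cxcl5 ratio differed in all 4 comparisons. For LPS+PBM against LPS this was fixed beforehand at both times, since Cxcl2 lay fully higher and Cxcl5 fully lower. The same holds for Cxcl1 to Cxcl5 at 4 h. Those tests restate the separation and are no further support. Every adjusted p of 0.0429 below, also for the other ratios, stays under 0.05 only because those tests are counted among the 12. The Cxcl2 to Cxcl5 ratio was 2.26, 1.26, 1.28 and 1.52 in the LPS libraries at 4 h. In LPS+PBM it was 7.94, 3.59, 3.38 and 3.87, a difference of 3.11 (exact p = 0.0286, adjusted p = 0.0429). The LPS+PBM library at 7.94 is the one with Cxcl5 at 0, where the ratio depends on the added 1 FPKM; without it the difference was 2.03. At 24 h the ratio averaged 0.03 ± 0.41 (SD, n = 4) with LPS and 1.39 ± 0.52 with LPS+PBM, a difference of 1.36 without overlap (exact p = 0.0286, adjusted p = 0.0429). From 4 h to 24 h it fell by 1.55 with LPS and by 3.30 with LPS+PBM (exact p = 0.0286 and adjusted p = 0.0429 for both); without the library at 0 the latter difference was −2.22.

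The Cxcl1 to Cxcl5 ratio was 2.54 higher with LPS+PBM than with LPS at 4 h (1.56 without the library at 0) and fell over time by 1.31 with LPS and by 3.35 with LPS+PBM (exact p = 0.0286, adjusted p = 0.0429 for each), a difference of −2.37 without that library. At 24 h LPS+PBM and LPS overlapped in this ratio (difference 0.50, exact p = 0.229, adjusted p = 0.274). The Cxcl1 to Cxcl2 ratio, the balance of the paralogues, was 2.25 ± 0.25 with LPS at 24 h and 1.39 ± 0.30 with LPS+PBM, 0.86 lower and without overlap (exact p = 0.0286, adjusted p = 0.0429). At 4 h it was 2.01 ± 0.34 and 1.44 ± 0.45, overlapping (difference −0.57, exact p = 0.0857, adjusted p = 0.114), and it showed no difference between times past the threshold (0.23 and −0.05, exact p = 0.314 and 0.857).

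**Figure D3:**
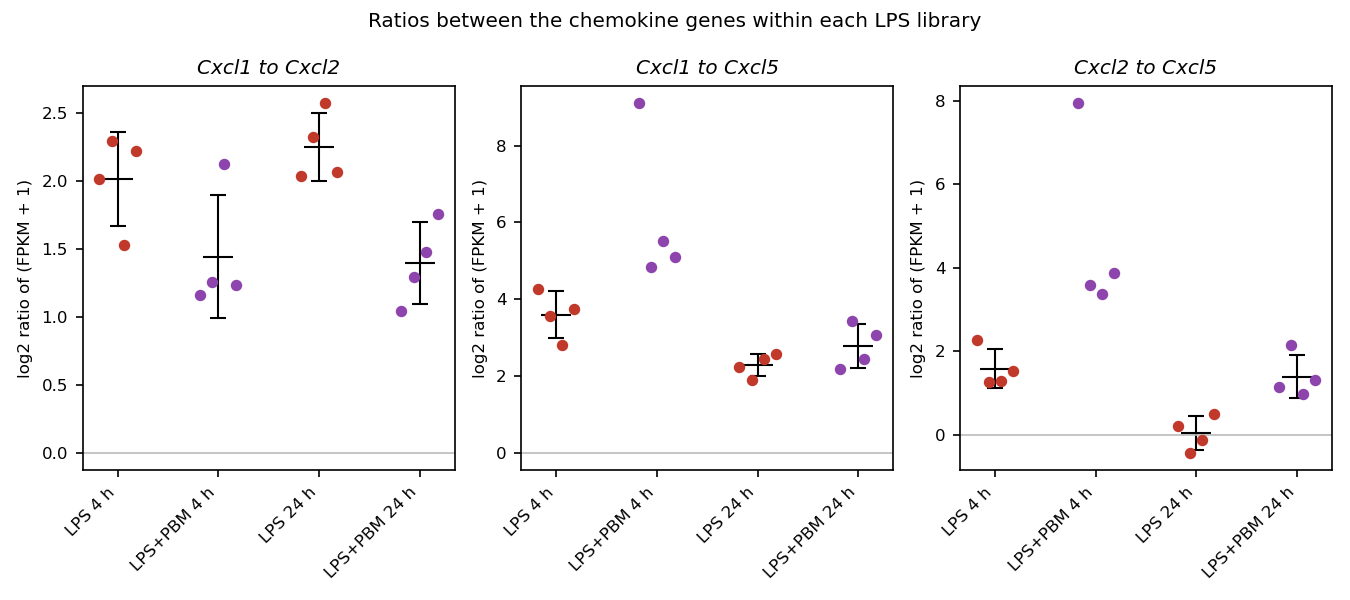
Log2 ratios of FPKM + 1 between the 3 genes within each library of the 4 LPS groups; points are libraries, and bars give the mean and SD (n = 4) where no library had a gene at 0. The Cxcl2 to Cxcl5 ratio lies at 3.38 to 7.94 with LPS+PBM at 4 h against 1.26 to 2.26 with LPS, and the highest point is the library with Cxcl5 at 0.

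The other members of the ligand family stayed low. Cxcl3 was listed at 0 in all Control and PBM libraries and at 14.1, 0, 37.0 and 7.29 FPKM with LPS at 4 h, 14.7, 14.7, 0 and 13.8 with LPS+PBM at 4 h, 6.90, 7.10, 14.5 and 14.4 with LPS at 24 h and 14.8, 0, 20.6 and 0 with LPS+PBM at 24 h. It passed for LPS against Control at 24 h (limma, adjusted p = 0.0345; 0.0601 to 0.0906 when any 1 library was left out) and not at 4 h (adjusted p = 0.143). Cxcl2 and Cxcl3 share an identical stretch of 110 bases in their transcripts and 89.7% of their coding bases, so fragments could be split between them, and 9 of 22 Cxcl2 values above 0 came out as whole fragments within 0.05, against 23 of 23 for Cxcl1 and 15 of 15 for Cxcl5. Cxcl15 and the platelet chemokine Pf4 were at 0 in all 32 libraries, and Ppbp was above 0 in 1 library each of LPS at 4 h (6.62 FPKM) and LPS+PBM at 24 h (13.4 FPKM).

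The receptor side was nearly absent. Cxcr1 and Ackr1, a decoy receptor that scavenges these ligands, were at 0 in all 32 libraries, and Cxcr2, the signalling receptor, was at 1.77 FPKM in 1 LPS library at 4 h and 2.30 FPKM in 1 at 24 h. None of the 3 was abundant enough to be tested.

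Upstream, ligands and sensors that can induce these chemokines were counted over a list of 18 genes, all tested. LPS raised 3 of them at 4 h and lowered none: Il1b (4.58 ± 0.59 in log2, limma, adjusted p = 6.69e-05), Il1a (4.20 ± 0.87, adjusted p = 0.00882) and Tnf (3.34 ± 0.50, adjusted p = 0.000386). At 24 h it raised 5, among them Il1a (7.94 ± 0.43), Il1b (8.46 ± 0.48) and the LPS co-receptor Cd14 (5.09 ± 0.72). The list's median log2 difference was 1.11 at 4 h and 0.52 at 24 h, against −0.07 and −0.05 over all genes tested. These counts, and those of the lists that follow, stand against 1.75% of all genes called higher at 4 h and 1.62% at 24 h. Il1a and Il1b rose further from 4 h to 24 h with LPS, by 4.31 ± 0.68 (limma, adjusted p = 0.000219) and 2.54 ± 0.54 (adjusted p = 0.00679), as they did with LPS+PBM (5.01 and 2.74). None of the 18 passed for LPS+PBM against LPS at either time, with median differences of −0.13 and −0.12.

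Of 13 NF-kappaB and C/EBP family factors and inhibitors, all tested, LPS raised 5 at 4 h and 6 at 24 h and lowered none. At 4 h the list included Tnfaip3, which encodes the feedback inhibitor A20 (3.33 ± 0.39, limma, adjusted p = 2.34e-05), Nfkb2 (1.84 ± 0.23, adjusted p = 4.85e-05), Nfkb1 (2.40 ± 0.33, adjusted p = 0.000128) and Nfkbia, the classical inhibitor IkappaB-alpha (2.39 ± 0.36, adjusted p = 0.000403). The fifth was Nfkbib, encoding IkappaB-beta (1.54 ± 0.36, limma, adjusted p = 0.0224), a call lost without any of 4 of the 8 libraries (adjusted p from 0.0229 to 0.0847). At 24 h Cebpd also rose (2.34 ± 0.45, limma, adjusted p = 0.00549). Without the 6 libraries whose columns stand last in the table, none of the 6 calls at 24 h held. Those libraries include LPS replicates 2 and 4 at 24 h, so fewer replicates were also compared. The differences were still 1.64 (Nfkb1) to 2.71 (Bcl3). The limma adjusted p was then 0.0528 for Tnfaip3, 0.0832 for Nfkb2, 0.111 for Bcl3, 0.152 for Nfkbia, 0.156 for Nfkb1 and 0.174 for Cebpd. The list's median was 1.54 at 4 h and 1.77 at 24 h, against −0.07 and −0.05 over all genes. None passed for LPS+PBM against LPS, with medians of 0.32 and 0.06.

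Nfkbiz, which encodes IkappaB-zeta, a nuclear cofactor required in mouse cells for a subset of late NF-kappaB target genes, was the 1 gene of the 13 to pass for PBM alone. It stood at 35.0, 40.1, 39.9 and 52.0 FPKM in Control at 4 h and at 9.76, 9.73, 20.5 and 17.3 in PBM, without overlap. With LPS it stood at 81.1, 76.7, 78.7 and 68.8 FPKM at 4 h, and with LPS+PBM at 145.2, 145.3, 128 and 122, again without overlap but in the other direction. PBM lowered it by itself at 4 h (−1.54 ± 0.25, limma, adjusted p = 0.0146) and at 24 h (39.5 ± 11.4 against 7.42 ± 4.41 FPKM; −2.43 ± 0.37, adjusted p = 0.00567).

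For LPS+PBM against LPS the Nfkbiz difference was 0.82 ± 0.25 at 4 h (limma, adjusted p = 0.423) and 0.32 ± 0.37 at 24 h (adjusted p = 0.978), and neither passed. The interaction passed at 4 h (2.35 ± 0.35, limma, adjusted p = 0.0103) and not at 24 h (2.75 ± 0.53, adjusted p = 0.0778). The PBM call at 4 h was lost when any of 4 of the 8 libraries was left out (adjusted p from 0.0111 to 0.0801), with the Control and PBM libraries fitted alone (0.435) and with limma-voom (0.0691), and the 24 h call was lost with those libraries fitted alone (0.214). The 4 h interaction did not pass without the 6 libraries whose columns stand last in the table (0.0856). Nfkbiz was 1 of 3 of the 13 genes that lay fully higher with LPS+PBM than with LPS at 4 h, where 1.7% of all genes did. The others were Nfkb2 (112 to 187 against 67.2 to 108 FPKM) and Rel (16.0 to 22.0 against 8.05 to 14.9 FPKM), and none of the 13 lay fully lower. None of the 3 passed the adjusted test. At 24 h Nfkb2 lay fully lower (44.8 to 56.1 against 60.3 to 65.9 FPKM), where 1.13% of all genes did.

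**Figure D4:**
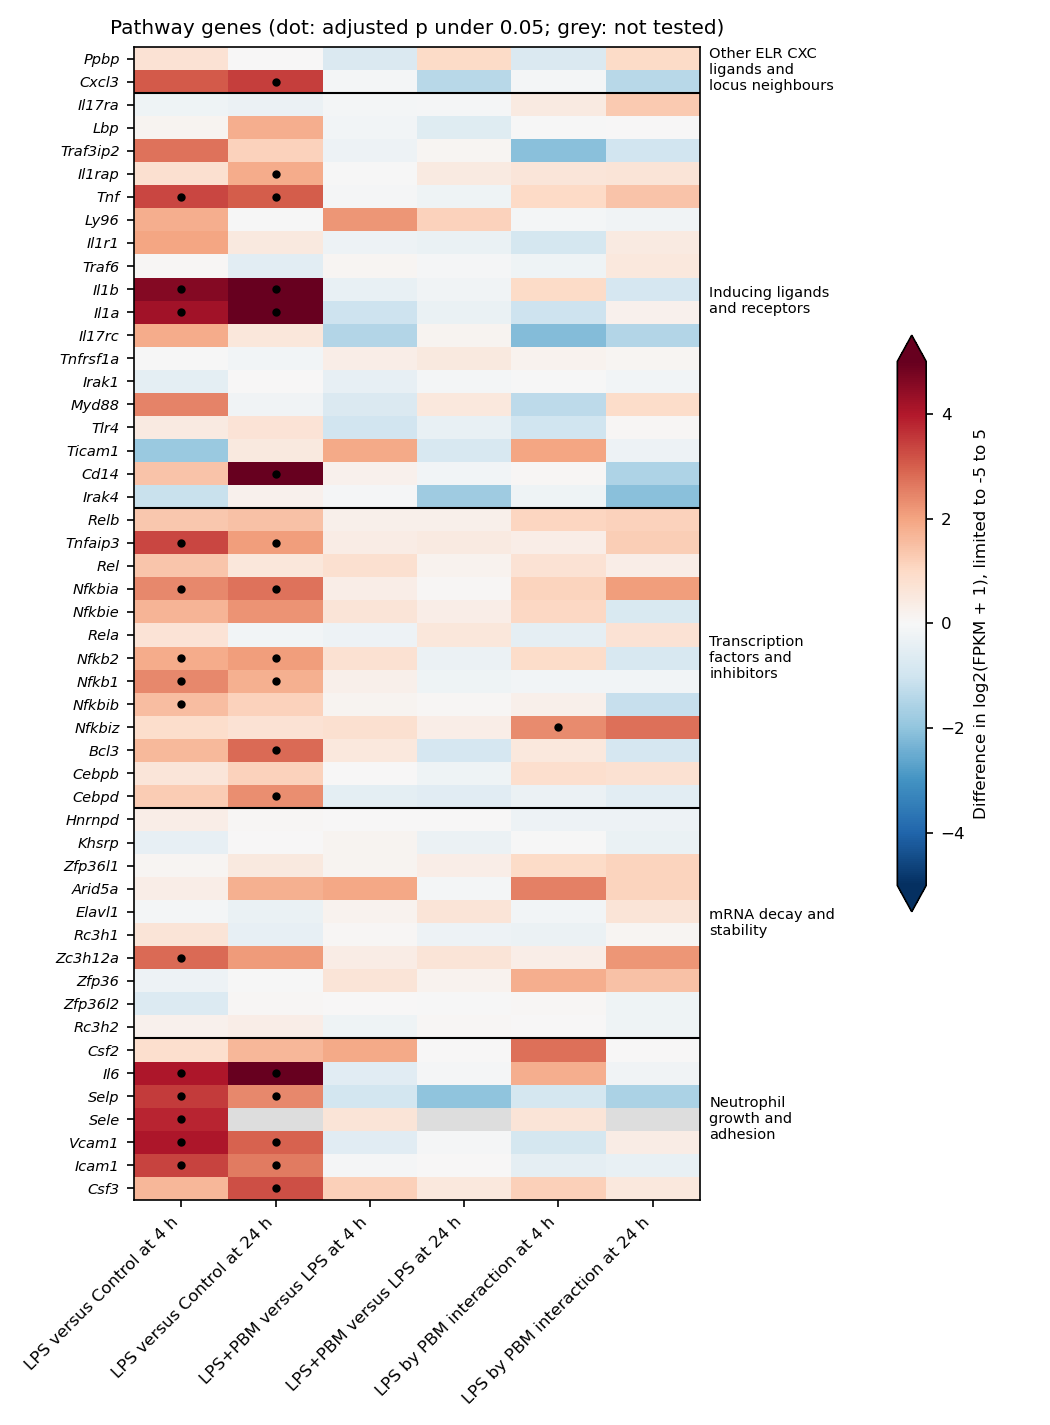
Difference in log2(FPKM + 1) of the listed pathway genes for LPS against Control, LPS+PBM against LPS and the interaction at both times; red is higher, blue lower, the colour scale is limited to −5 to 5, dots mark an adjusted p under 0.05 and grey was not tested. Dots fill the LPS columns for Il1a, Il1b, Tnf, Nfkbia and Icam1, none lies in the LPS+PBM against LPS columns, and Nfkbiz carries the only dot of an interaction.

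Of 10 genes that set the decay and stability of AU-rich messenger RNAs, LPS raised 1 at 4 h, Zc3h12a, which encodes the endonuclease Regnase-1 (2.82 ± 0.45, limma, adjusted p = 0.00065), and none passed at 24 h. The list's median was 0.15 at 4 h and 0.08 at 24 h. Zfp36, encoding the decay factor tristetraprolin, was at 71.7 ± 21.9 FPKM (SD, n = 4) with LPS at 4 h and did not pass against Control (−0.24 ± 0.26, limma, adjusted p = 0.787). None of the 10 passed for LPS+PBM against LPS. Zfp36 alone lay fully higher there at 4 h, narrowly (90.6 to 127 against 39.8 to 89.7 FPKM), where 1.7% of all genes did. With PBM alone Zfp36, like Nfkbiz, stood below Control, at 24.1 to 49.8 against 72.5 to 90.0 FPKM at 4 h. At 24 h it was at 25.8 to 41.65 against 71.3 to 83.3 FPKM. Its interaction was 1.82 ± 0.37 at 4 h and 1.47 ± 0.37 at 24 h and did not pass (limma, adjusted p = 0.166 and 0.377).

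Of 7 genes that act with these chemokines in making neutrophils and bringing them through the vessel wall, 5 rose with LPS at 4 h, namely Vcam1 (4.05 ± 0.20, limma, adjusted p = 1.24e-10), Icam1 (3.39 ± 0.22, adjusted p = 8.18e-09), Sele (3.81 ± 0.64), Selp (3.49 ± 0.64) and Il6 (4.03 ± 0.85). Csf2 (0.83 ± 0.89) and Csf3 (1.66 ± 0.74) did not pass at 4 h (limma, adjusted p = 0.776 and 0.370). At 24 h 5 of 6 tested rose, and Csf3, the neutrophil growth factor G-CSF, was among them (3.23 ± 0.84, limma, adjusted p = 0.0453), a call lost without any of 7 of the 8 libraries. Sele fell from 4 h to 24 h with LPS (−4.27 ± 0.50, limma, adjusted p = 1.42e-06), while Cxcl5 lay higher. The list's median was 3.49 at 4 h and 2.79 at 24 h, and none passed for LPS+PBM against LPS. In that comparison at 4 h Vcam1 (399 to 423 against 534 to 672 FPKM) and Il6 (263 to 378 against 397 to 529 FPKM) lay fully lower, where 2.14% of all genes did. At 24 h Selp lay fully lower (0 to 2.11 against 2.12 to 8.54 FPKM), where 1.13% of all genes did. Its 2 ranges nearly met, at values close to the floor.

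The genes whose levels followed each chemokine most closely across the 32 libraries were found by Pearson r of log2(FPKM + 1) among 8579 genes that averaged 10 FPKM or more in some group. The libraries share the LPS contrast, so these values describe mainly that contrast. For Cxcl1 they were Nos2 (0.946), Ccl2 (0.941), Slc7a2 (0.937), Acod1 (0.930) and Lif (0.923), and for Cxcl2 they were Lif (0.954), Nos2 (0.935), Ccl3 (0.927), Jak2 (0.925) and Acod1 (0.924). For Cxcl5 they were Ptx3 (0.957), Timp1 (0.955), Slc7a2 (0.942), Il1b (0.941) and Lcn2 (0.938). Cxcl1 and Cxcl2 correlated at 0.887, Cxcl1 and Cxcl5 at 0.858, and Cxcl2 and Cxcl5 at 0.832.

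Mean levels show how these neighbours differ. Of the 5 genes closest to Cxcl2, Lif had a higher mean with LPS+PBM than with LPS at 4 h (169 against 129 FPKM), as did Jak2 (85.6 against 73.4 FPKM) and, barely, Acod1 (157 against 156 FPKM). Nos2 (45.1 against 48.9 FPKM) and Ccl3 (174.5 against 182 FPKM) had lower ones. Ptx3, Il1b and Lcn2, like Cxcl5, had higher means with LPS at 24 h than at 4 h: Ptx3 went from 399 to 869 FPKM, Il1b from 60.3 to 362 FPKM and Lcn2 from 29.6 to 349 FPKM. Ptx3 also had a lower mean with LPS+PBM than with LPS at 4 h, 198 against 399 FPKM.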

How the data were processed

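The authors deposited 1 table of FPKM values for 21899 genes and 32 libraries, with 2 decimals, which was used as deposited. Per the labels, Trizol RNA was copied by oligo-dT priming with template switching. The full-length cDNA was amplified by PCR and read on a NovaSeq. No molecular barcodes are named, so the Poisson and binomial intervals cover counting error only. The limma intervals rest on the spread between libraries. The submitters' processing notes name the build mm10 with HISAT2, RSEM, StringTie 1.3.1, fastp 0.18.0 and Bowtie2 2.2.8; the sources used here do not tell which of them made the FPKM values or how strand was set. GENCODE M21 held 21806 of the gene IDs.

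Depth was inferred from FPKM steps: in 4310 single-transcript genes, 92.3% of 23614 values of up to 20 fragments were whole within 0.05. The test was limma 3.58.1 (R 4.3.3) on log2(FPKM + 1) with trend and robust variances. Genes had to average 1 FPKM or more in some fitted group, and 1 fit took the 16 libraries of a time, or all 32 where times were compared. Benjamini-Hochberg adjustment ran over all genes tested, with a threshold of 0.05; the code was tested on simulated data. Exact permutation tests and intervals used SciPy 1.17.1. Alternatives were a pseudocount of 0.1, no filter, quantile normalization, only the groups compared, the replicate number as a block, limma-voom on approximate fragments and leaving out each library. Leaving out the 6 libraries whose columns stand last in the table, out of order, and the exact test of single genes were added after seeing the data. At 4 h these libraries are LPS replicate 1 and LPS+PBM replicate 2. At 24 h they are PBM replicate 2, LPS replicates 2 and 4 and LPS+PBM replicate 1.

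The 3 genes, the 6 pathway lists (55 genes) and the marker lists were chosen with earlier results of these data known. Named genes are the 3 chemokines, up to 4 genes per list and comparison with the smallest adjusted p, the list genes a comparison is about, and the 5 most alike genes. Sele, Selp and Il6 at 4 h, Zfp36 and the genes whose mean levels are compared were named after their values were seen.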

Additional observations from a re-analysis of the deposited data

Results flagged for a closer look

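In 4 of the 20 groups of 4 libraries in which a chemokine gene was not at 0 throughout, 1 library lay apart from 3 identical ones at 0. These were Cxcl1 in Control at 24 h (8.02 FPKM) and in PBM at 24 h (14.6 FPKM), and Cxcl2 in PBM at 4 h (6.70 FPKM) and in PBM at 24 h (6.61 FPKM). Each value corresponds to 1 or 2 fragments. By chance about 1 in 20 groups would be singled out by this criterion when values spread evenly. No group with LPS was singled out.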

How the results depend on the processing

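The calls of Cxcl1, Cxcl2 and Cxcl5 for LPS against Control held under every alternative run at both times, as did those for LPS+PBM against PBM except for Cxcl5 at 4 h. That difference, 3.02 in the main analysis, was not called with a pseudocount of 0.1 (5.45, limma, adjusted p = 0.0624), with only the groups compared (3.02, adjusted p = 0.150) or without the 6 libraries whose columns stand last (2.59, adjusted p = 0.160), and ranged from 2.59 to 4.03 when libraries were left out 1 at a time. Cxcl5 in LPS at 24 h against 4 h was called with only the groups compared (1.75, limma, adjusted p = 0.019) and with limma-voom (1.71, adjusted p = 0.000283), and its LPS effect at 24 h minus 4 h with limma-voom (1.68, adjusted p = 0.0303). Cxcl5 in LPS+PBM at 24 h against 4 h was not called with only the groups compared (3.13, limma, adjusted p = 0.0512). The cause of these changes was not tested. Among the named pathway genes, a pseudocount of 0.1 ended the calls of Tnf (0.0545) and Il6 (0.203) for LPS against Control at 4 h and of Il1a (0.0851) and Il1b (0.351) for LPS at 24 h against 4 h, and leaving out the 6 libraries ended those of Cebpd (0.174), Cxcl3 (0.159), Csf3 (0.547) and Tnf (0.112) for LPS against Control at 24 h and of Il1b for LPS at 24 h against 4 h (0.160; limma, adjusted p throughout). Csf3 at 24 h was also not called with a pseudocount of 0.1 (0.0624), the replicate block (0.0649) or only the groups compared (0.153), nor Tnf at 24 h with a pseudocount of 0.1 (0.236). Without the 6 libraries, LPS against Control at 24 h also lost Tnfaip3 (0.0528), Nfkb2 (0.0832), Bcl3 (0.111), Nfkbia (0.152), Nfkb1 (0.156), Il1rap (0.198) and Selp (0.108). No called value of these genes changed sign. Uncalled differences of the 3 chemokines changed sign under some alternative in 5 combinations of gene and comparison, among them Cxcl1 for PBM against Control at 24 h, and those of the listed pathway genes in 225 of 723 combinations, among them Zfp36 for LPS against Control at both times.

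Replicate numbers recur in all groups, and no pairing was seen. Residuals of same-numbered libraries correlated at −0.024 to 0.026 (48 pairs, 0 above 0.1) and of others at −0.033 to 0.029 (144 pairs). With so few fragments per gene, this check cannot exclude that same-numbered libraries were paired. With the replicate number as a block, Cxcl5 for LPS+PBM against PBM at 4 h was 3.02 (limma, adjusted p = 0.0514), and the genes called in the interaction at 24 h went from 7 to 4.

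Leaving out the 6 libraries also leaves fewer replicates, among them LPS replicates 2 and 4 at 24 h. Fewer replicates and a trait of those columns cannot be told apart here. Counts of all genes called moved by more than 1.5 times as follows. Without the 6 libraries, LPS against Control at 24 h went from 340 to 159, LPS+PBM against PBM at 24 h from 359 to 180, LPS at 24 h against 4 h from 186 to 88, LPS+PBM at 24 h against 4 h from 420 to 258, the LPS effect over time from 86 to 42, PBM against Control at 24 h from 15 to 9, and the interactions from 4 and 7 to 1 each. With only the groups compared, LPS at 24 h against 4 h went from 186 to 110, LPS+PBM from 420 to 264, Control from 155 to 38, PBM from 147 to 44, the LPS effect over time from 86 to 52, and PBM against Control from 6 to 2 at 4 h and from 15 to 7 at 24 h. For LPS+PBM against LPS the count at 4 h was 0, against 1 with a pseudocount of 0.1, 1 without the 6 libraries and 12 with limma-voom, and at 24 h it was 1, against 0 without the 6 libraries, with limma-voom and with only the groups compared. Leaving out 1 library moved 9 counts: LPS+PBM against LPS at 4 h to 1 without LPS replicate 2 and to 2 without LPS+PBM replicate 2, the same at 24 h to 2 without LPS replicate 4 or LPS+PBM replicate 1 and to 5 without LPS+PBM replicate 2, and the interaction at 24 h from 7 to 4 without PBM replicate 3, LPS replicate 2 or 3, or LPS+PBM replicate 3. Quantile normalization moved the median of all genes by 0.12 in LPS+PBM against PBM at 4 h and by less than 0.1 elsewhere. The depth, 1 to 5 Cxcl1 fragments over 4 Control or PBM libraries, limits every fold against resting cells.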
